A study of Mus musculus with 3 samples.

Results

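The genes described here are 9 members of the plasminogen activation and matrix metalloproteinase system, taken by symbol from 55536 gene rows: Plaur, Plau, Mmp8, Mmp9, Mmp12, Mmp13, Mmp14, Mmp19 and Timp2. Their levels were measured in the cytosolic fraction of bone-marrow-derived macrophages of C57BL/6J mice after 20 min with Lipid A, the lipid part of bacterial lipopolysaccharide that Tlr4 senses, at 100 ng/ml. Total RNA was depleted of ribosomal RNA and sequenced in 3 libraries of this 1 condition, numbered by the labels as biological replicates 1, 2 and 3 but given a single donor identifier; sex and age were not collected. Spreads between the libraries may therefore be partly technical. Macrophages without Lipid A, later times and nuclear RNA are not analysed here. With 1 condition no gene can be called induced or repressed, and no test between groups exists.

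Urokinase, the product of Plau, is a secreted protease that converts plasminogen into plasmin. The GPI-anchored receptor encoded by Plaur holds it at the cell surface. Plasmin dissolves fibrin and can activate the zymogens of several matrix metalloproteinases, which cut collagens, elastin and other matrix proteins and are held in check by the TIMP inhibitors. Macrophages use this system when they move through tissue, and Mmp12 carries the name macrophage elastase.

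Most of the members were detected in the cytosol, with the inhibitor Timp2 above each protease and the gelatinase Mmp9 below the detection limit. At 1 TPM (a length-corrected share of all transcripts) or more in all 3 libraries, 8 of the 9 genes counted as detected, against 40.6% of 21938 nuclear-encoded protein-coding genes. The members were chosen with earlier results of these data known, so this comparison describes the list and is no evidence about the system. The median of mean TPM was 5.17 over the 9 members, beside 6.96 over the detected protein-coding genes. The order of mean TPM was Timp2, Mmp12, Plau, Plaur, Mmp19, Mmp8, Mmp14, Mmp13 and Mmp9, and it was the same in the second transcript table and after rescaling. The ranges over libraries of Mmp19 and Mmp8, of Mmp8 and Mmp14, and of Mmp14 and Mmp13 overlapped. Within each single library, Mmp19 lay above Mmp8 and Mmp14 lay above Mmp13. Mmp14 lay above Mmp8 in replicate 1 and below it in replicates 2 and 3, so the order of that pair is not settled. All 8 macrophage markers were detected, including Csf1r at 214 ± 41.3 TPM (SD, n = 3), and none of 6 fibroblast markers was. The libraries held 27392626, 81597761 and 37176950 expected counts. Because nuclear-encoded protein-coding genes held 25.0%, 22.0% and 19.6% of all TPM in replicates 1, 2 and 3, each value was also rescaled to that total, which multiplies it by 4.01, 4.55 and 5.09.

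**Figure D1:**
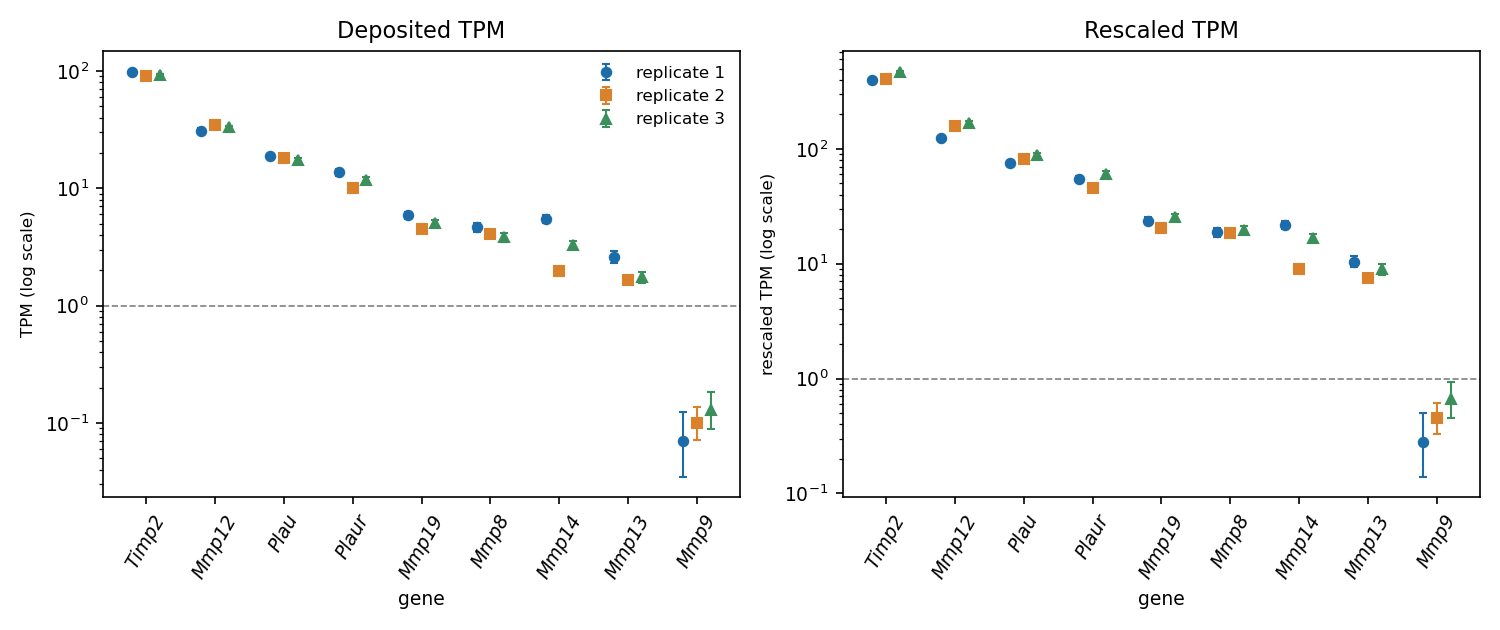
Level of each gene in each library, as deposited TPM (left) and as TPM rescaled to the nuclear-encoded protein-coding total (right), both on log axes. Points are libraries, bars are exact 95% Poisson intervals of the counts and cover counting error only, and the dashed line marks 1. Timp2 lies between 89.7 and 98.4 TPM, and Mmp9 lies between 0.07 and 0.13 TPM.

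The sequences printed first are the annotated start regions of Mmp12, Mmp13 and Plaur, shown because these 3 genes hold a match to the AP-1 element, and Mmp12 because its transcripts begin at a pair of starts. Each runs from 250 bases before to 50 bases after a start, taken from RefSeq on GRCm38.p6 and plus strand, with the matches to TGANTCA (AP-1) and to TATAAA in capitals.
Mmp12, upstream start, chr9:7344147-7344446: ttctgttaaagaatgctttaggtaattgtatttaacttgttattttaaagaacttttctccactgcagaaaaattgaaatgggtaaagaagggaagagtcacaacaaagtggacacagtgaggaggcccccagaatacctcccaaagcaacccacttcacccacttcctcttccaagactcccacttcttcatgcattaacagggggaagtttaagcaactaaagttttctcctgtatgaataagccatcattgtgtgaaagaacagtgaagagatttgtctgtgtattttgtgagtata
Mmp12, downstream start, chr9:7347124-7347423: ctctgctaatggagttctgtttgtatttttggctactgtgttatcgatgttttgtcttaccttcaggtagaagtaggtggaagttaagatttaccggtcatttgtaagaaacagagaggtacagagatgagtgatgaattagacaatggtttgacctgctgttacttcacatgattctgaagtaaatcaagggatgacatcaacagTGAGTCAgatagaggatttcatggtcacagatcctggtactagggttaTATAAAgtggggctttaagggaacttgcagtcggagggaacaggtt
Mmp13, chr9:7272264-7272563: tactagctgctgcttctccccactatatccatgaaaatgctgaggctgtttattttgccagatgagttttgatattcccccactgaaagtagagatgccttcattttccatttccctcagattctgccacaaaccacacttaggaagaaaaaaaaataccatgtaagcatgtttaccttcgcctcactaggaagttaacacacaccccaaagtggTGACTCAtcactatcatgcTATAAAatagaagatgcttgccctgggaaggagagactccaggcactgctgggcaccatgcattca
Plaur, chr7:24462233-24462532: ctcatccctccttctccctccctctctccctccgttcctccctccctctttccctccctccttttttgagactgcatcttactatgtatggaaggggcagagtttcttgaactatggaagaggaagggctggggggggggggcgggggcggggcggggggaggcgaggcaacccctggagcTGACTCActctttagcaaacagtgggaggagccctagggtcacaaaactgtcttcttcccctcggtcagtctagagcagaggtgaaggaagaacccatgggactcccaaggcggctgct

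RefSeq rows were found for 6 of the 9 genes (Plaur, Mmp8, Mmp12, Mmp13, Mmp14 and Timp2), with 7 start regions in all. TGANTCA, which reads as the same motif on the opposite strand, was present in 3 of these 7, against 7.81% of 32851 start regions in the table. Counted from the annotated start at 0, it began at -44 in the downstream region of Mmp12, at -35 in Mmp13 and at -69 in Plaur. TATAAA, searched on both strands, was also present in 3 of the 7 regions, against 13.6% of the table, and it overlapped no TGANTCA match. It began at 4 in the downstream region of Mmp12, at -16 in Mmp13 and, on the minus strand, at -3 in Mmp8. The transcript Mmp12-204 of the GENCODE annotation starts 28 bases after the first base of that TATAAA. Timp2 had 25 CpG pairs in its 300 bases, more than 81.6% of the table. Both Mmp12 regions (0 and 3), Mmp13 (1) and Mmp8 (4) lay under the table's median of 7, whereas Plaur had 7 and Mmp14 had 10. These matches describe the letters of the windows, and no binding was measured.

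Plau and Plaur were both expressed, with the protease above its receptor in each library. Plau (ENSMUSG00000021822.3, chromosome 14, 20836660 to 20843385, mm10) stood at 18.9, 18.1 and 17.5 TPM in replicates 1, 2 and 3, from 2015, 6351 and 2930 expected counts. On TPM the 3 libraries lay within a factor of 1.08 of each other. Rescaled, Plau had 75.7, 82.2 and 89.1, lowest in replicate 1 and highest in replicate 3, with a factor of 1.18 between them. Plaur (ENSMUSG00000046223.10, chromosome 7, 24462484 to 24475968) had 13.7, 10.1 and 11.9 TPM from 850, 2085 and 1128 counts. Its highest value was in replicate 1 and its lowest in replicate 2, with a factor of 1.36 between them. Rescaled, Plaur had 54.7, 45.7 and 60.3, highest in replicate 3 and again lowest in replicate 2. The log2 ratio of Plaur to Plau was -0.47, -0.84 and -0.56, a mean of -0.63 ± 0.20 (SD, n = 3), so the receptor's level per length was below that of its ligand in 3 of 3 libraries. In bulk samples, fewer cells of a type and less RNA per cell cannot be told apart.

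Around this pair, surface receptors for plasminogen and for protease complexes were expressed, and RNA of plasminogen itself was not seen. Of 16 other plasminogen system genes, 5 were detected, beside 40.6% of all nuclear-encoded protein-coding genes. Lrp1, the endocytic receptor that clears protease and inhibitor complexes, averaged 145 ± 23.6 TPM, above every member in the gene table, although in the second table it lay below Timp2 in 3 of 3 libraries (34.2, 31.5 and 34.6 against 50.6, 48.7 and 37.3 TPM). Anxa2 and S100a10, which together form a surface receptor for plasminogen, averaged 113 ± 7.48 and 61.9 ± 11.0 TPM. Eno1, a glycolytic enzyme that also binds plasminogen, averaged 64.3 ± 9.49 TPM. Plgrkt, a membrane plasminogen receptor with a terminal lysine, averaged 17.9 ± 1.98 TPM, close to Plau. Some genes below the limit are named after their values were seen. Plg, which encodes plasminogen itself, and Vtn, which encodes the matrix ligand vitronectin, had 0 counts in all 3 libraries; a count of 0 allows up to 3 counts, which is 0.110, 0.0368 and 0.0808 CPM in replicates 1, 2 and 3. Plat, the tissue-type activator, had 0, 1 and 0 counts. Serpine2, a serpin that inhibits several serine proteases, averaged 0.320 ± 0.149 TPM.

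The 6 metalloproteinase members were led by the macrophage elastase Mmp12. Mmp12 (ENSMUSG00000049723.14, chromosome 9, 7344381 to 7369499) stood at 31.0, 34.8 and 33.1 TPM, from 2243, 8058 and 3941 counts. That mean exceeded 88.5% of the 8910 detected protein-coding genes. Of the summed TPM of all 23 Mmp genes, 47.4%, 57.0% and 54.0% came from Mmp12. Of 17 other Mmp genes 1 was detected, beside 40.6% of all nuclear-encoded protein-coding genes. It was Mmp27, a little-studied family member, which supplied a further 22.2% ± 0.714 of that sum, at 15.1, 13.3 and 13.4 TPM. Next among the 17 by mean were Mmp2 at 0.150 ± 0.0608 TPM, the gelatinase that Mmp14 activates, and Mmp11 at 0.133 ± 0.0751 TPM.

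A pair of collagenases was present at lower levels, and both lie in the same chromosome 9 cluster as Mmp12. Mmp8 (ENSMUSG00000005800.3, 7558456 to 7568485), named the neutrophil collagenase, had 4.67, 4.09 and 3.88 TPM from 518, 1492 and 674 counts, and after rescaling its 18.7, 18.6 and 19.8 were nearly level. Neutrophil markers summed to 19.2, 27.9 and 28.4 TPM, with 3 of 10 detected (S100a8, S100a9 and Ngp) and Ly6g at 0, 0 and 1 counts; their part in the Mmp8 level was not tested. Mmp13 (ENSMUSG00000050578.10, 7272514 to 7283331), the collagenase of bone and cartilage, had 2.60, 1.64 and 1.75 TPM from 321, 665 and 338 counts. Replicate 1 was the high one, and its 95% Poisson interval, 2.32 to 2.90 TPM, did not overlap the 1.52 to 1.77 of replicate 2 or the 1.57 to 1.95 of replicate 3. After rescaling, its interval of 9.31 to 11.6 overlapped the 7.98 to 9.91 of replicate 3 and stayed apart from the 6.90 to 8.04 of replicate 2. Such intervals cover counting error only.

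The cluster holds 10 Mmp genes over 427 kb, in the order Mmp13, Mmp12, Mmp1b, Mmp3, Mmp1a, Mmp10, Mmp8, Mmp27, Mmp20 and Mmp7. Detected were 4 of the 10, close to the 40.6% of all nuclear-encoded protein-coding genes. These were the neighbours Mmp13 and Mmp12 at one end and the neighbours Mmp8 and Mmp27 further along. The other 6 had at most 16 counts in any library, and Mmp1b, Mmp3, Mmp1a and Mmp20 had 0 in all 3.

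**Figure D2:**
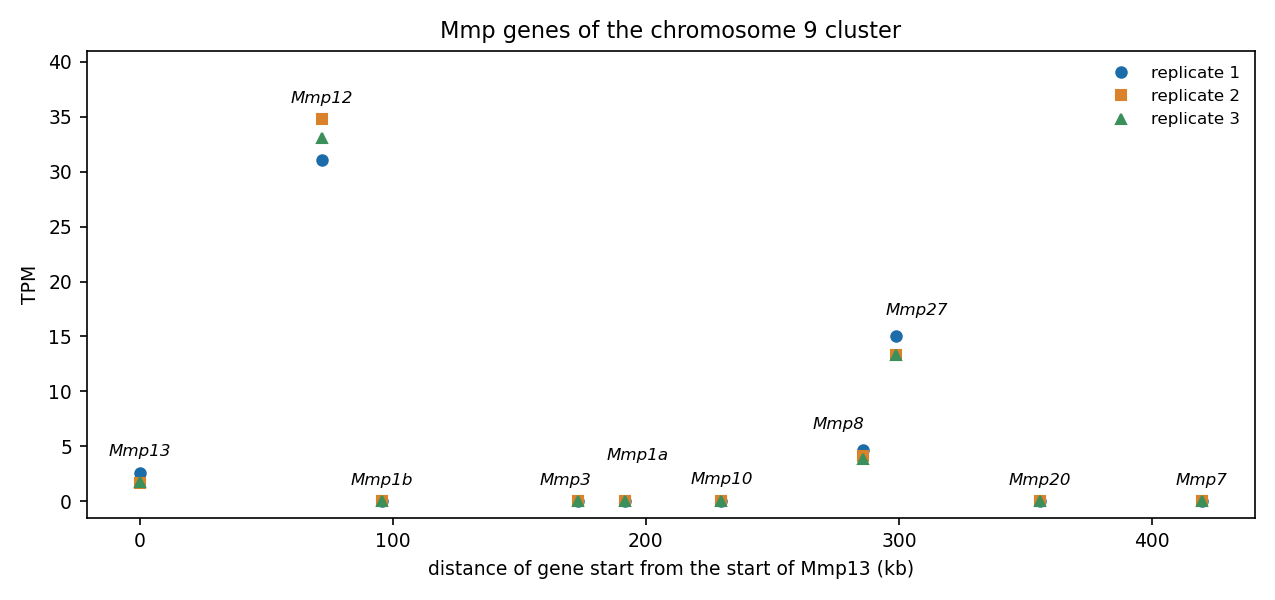
TPM of the 10 Mmp genes of the chromosome 9 cluster in each library, against the distance of each gene's start from the start of Mmp13 in kb. Mmp12 stands highest at 31.0 to 34.8 TPM, Mmp27 follows at 13.3 to 15.1 TPM, and 6 genes lie at or near 0.

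Gelatinase B, Mmp9 (ENSMUSG00000017737.2, chromosome 2, 164940780 to 164955850), which cuts denatured collagen and basement membrane, was the member that was not detected. It had 11, 41 and 31 counts and 0.07, 0.10 and 0.13 TPM in replicates 1, 2 and 3. The Poisson intervals of the 3 libraries overlapped. They ran from 0.0349 to 0.125 TPM in replicate 1, 0.0718 to 0.136 in replicate 2 and 0.0883 to 0.185 in replicate 3. Overlap alone does not show equal levels, and the order of the libraries was not tested. Lcn2, a lipocalin whose protein binds Mmp9, stood at 0.94, 1.15 and 1.13 TPM, on either side of the limit.

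Mmp19 (ENSMUSG00000025355.7, chromosome 10, 128790910 to 128800824), a secreted protease that cuts basement membrane proteins, had 5.91, 4.54 and 5.05 TPM from 858, 2192 and 1215 counts. It was highest in replicate 1 and lowest in replicate 2, with a factor of 1.30 between them. Rescaled, it had 23.7, 20.6 and 25.7, highest in replicate 3 and again lowest in replicate 2.

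Mmp14 was the member that differed most between libraries. It encodes the membrane-type metalloproteinase that sits at the cell surface, cuts collagen there and, with Timp2 as a bridge, activates pro-Mmp2. Mmp14 (ENSMUSG00000000957.11, chromosome 14, 54431612 to 54445364) had 5.46, 1.99 and 3.31 TPM in replicates 1, 2 and 3. The counts were 644, 767 and 600, although replicate 2 was the deepest library. Its 95% Poisson intervals, 5.05 to 5.90, 1.85 to 2.14 and 3.05 to 3.59 TPM, were all separate, and the highest library exceeded the lowest by a factor of 2.74. Rescaled values were 21.9, 9.05 and 16.9, a factor of 2.42, and the second table rescaled gave 23.8, 9.97 and 17.7. The SD of log2(TPM + 1) of Mmp14 was 0.56, larger than that of 99.0% of detected protein-coding genes, and 0.61 after rescaling, larger than 99.2%. Osteoclast markers, from cells of the same lineage, summed to 74.0, 49.0 and 74.9 TPM, with 1 of 6 detected (Atp6v0d2 at 70.8, 47.1 and 72.8 TPM), Acp5 at 1.81, 0.92 and 1.12 TPM and Calcr at 0 counts in each library; their part in the spread of Mmp14 was not tested. Fibroblast markers summed to 0.02, 0.05 and 0.09 TPM.

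Next to Mmp14, the largest SD among the members was that of Mmp13, 0.24 on TPM (larger than 84.4% of genes), and after rescaling that of Mmp12, 0.23 (larger than 90.7%). The median SD of log2(TPM + 1) was 0.14 over the 8 detected members, beside 0.16 over the detected protein-coding genes, and after rescaling 0.18 beside 0.10. On TPM, 7 of the 8 detected members were highest in replicate 1, beside 82.6% of detected genes, which is the library with the most protein-coding TPM. Mmp12 was the 1 exception, highest in replicate 2 beside 13.5% of genes, and 0 members were highest in replicate 3 beside 3.91%. After rescaling, 2 members (Mmp13 and Mmp14) were highest in replicate 1 beside 30.1% of genes, 0 in replicate 2 beside 31.4%, and 6 in replicate 3 beside 38.5%. Both Mmp13 and Mmp14 then ran in the order replicate 1, 3, 2 from high to low, an order held by 13.8% of detected genes. Rescaled Mmp12 had 124, 158 and 168 in replicates 1, 2 and 3, the low library being the 1 in which Mmp13 and Mmp14 were high.

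**Figure D3:**
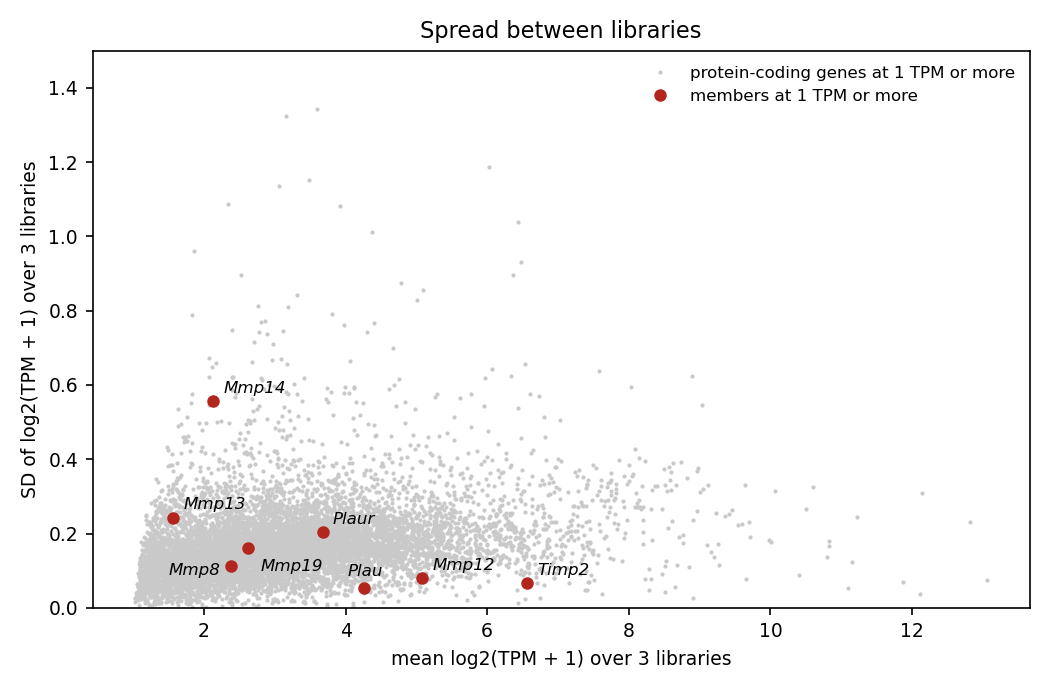
SD of log2(TPM + 1) over 3 libraries against the mean of log2(TPM + 1), for protein-coding genes that reached 1 TPM in every library (grey) and the 8 detected members (red). Mmp14 lies at an SD of 0.56, above 99.0% of the genes, and Plau at 0.05 is the lowest member on this scale. After rescaling, which is not plotted, Mmp8 is the lowest at 0.046 and Plau has 0.12. Above the plotted range lies 1 gene.

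Timp2 (ENSMUSG00000017466.9, chromosome 11, 118301069 to 118355740), which inhibits metalloproteinases and binds Mmp14, was the most abundant member, at 98.4, 89.7 and 92.3 TPM from 17270, 51803 and 25392 counts. Rescaled, Timp2 had 394, 408 and 470, lowest in replicate 1 and highest in replicate 3. Its mean TPM exceeded that of 96.2% of detected genes, and it made up 99.8% ± 0.0509 of the summed TPM of Timp1 to Timp4. The 3 other Timp genes, named after their values were seen, were each under 1 TPM, Timp1 at 0.0933 ± 0.0416 TPM. The log2 ratio of Mmp14 to Timp2 was -4.17, -5.49 and -4.80, a mean of -4.82 ± 0.66. The 6 metalloproteinase members, without Plau, together had 49.7, 47.1 and 47.2 TPM, and the log2 ratio of that sum to Timp2 was -0.98, -0.93 and -0.97, a mean of -0.96 ± 0.03 (SD, n = 3). The summed ratio was thus much steadier between libraries than that of Mmp14 alone. Most of that sum was Mmp12, which supplied 62.4%, 73.8% and 70.1% of it. Of 7 other inhibitors and partners of the proteases 2 were detected, beside 40.6% of all nuclear-encoded protein-coding genes. The median of mean TPM over the 7 was 0.0933. Bsg, the inducer of metalloproteinases on neighbouring cells, averaged 71.7 ± 6.71 TPM, and Cd44, a hyaluronan receptor that docks Mmp9 and Mmp14, averaged 51.2 ± 2.92 TPM.

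Among 15 ADAM and ADAMTS proteases, the membrane sheddases and relatives of the metalloproteinases, 7 were detected, all of them ADAMs. Adam8, an ADAM of leukocytes, was highest at 68.4, 74.2 and 86.2 TPM, above each of the 6 metalloproteinases and Plau. Adam15 averaged 46.5 ± 4.46 TPM, Adam9 29.3 ± 2.13 TPM, the Tnf sheddase Adam17 23.3 ± 5.63 TPM, Adam10 18.7 ± 2.49 TPM, Adam19 4.18 ± 1.48 TPM and Adam33 1.55 ± 0.235 TPM. In all, 15 of 55 other genes of the system were detected, beside 40.6% of all nuclear-encoded protein-coding genes.

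Mmp12 RNA was spread over several annotated transcripts, and the one that led the first transcript table is not annotated as coding. Coding transcripts together held 53.4%, 63.1% and 52.0% of the gene's TPM there, and 64.3%, 72.7% and 62.6% in the second table. Mmp12-204, of the nonsense-mediated decay class, held 45.4%, 36.7% and 46.7% of the gene's TPM in the first transcript table, and 33.7%, 26.6% and 35.6% in the second. The coding Mmp12-202 held 30.8%, 28.6% and 26.5%, and 28.2% ± 1.45 in the second table. Mmp12-203, which is coding and begins 2977 bases upstream of the RefSeq downstream start, held 22.2%, 33.9% and 24.2%, and 34.7%, 43.9% and 35.5% in the second table. In both tables replicate 2 had the largest share of this upstream start and the smallest share of Mmp12-204. Which transcript came first therefore depended on the table: Mmp12-204 led in each library of the first, and Mmp12-203 in replicates 1 and 2 of the second. In the first table the decay-class share of Mmp12, 43.0% ± 5.42, exceeded that of 95.3% of 2785 detected genes that have such a transcript. The second table gave a share of 31.9% ± 4.73.

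The sequences that follow show what sets Mmp12-204 apart in exon 2, and come from the M21 transcript sequences, plus strand. In Mmp12-204 the exon begins 58 bases earlier, at chr9:7348527-7348584, and those bases are in capitals; 20 bases of exon 1 precede them.
Mmp12-204: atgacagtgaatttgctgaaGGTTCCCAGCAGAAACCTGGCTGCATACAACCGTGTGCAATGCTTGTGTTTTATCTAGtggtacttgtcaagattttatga
Mmp12-202: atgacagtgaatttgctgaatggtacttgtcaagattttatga
The added 58 bases leave a remainder of 1 when divided by 3. After them the frame meets a stop codon, the closing tga, once 20 bases of the shared exon have been read. Mmp12-204 also has its own 3′ end, at 7358888, whereas Mmp12-201 keeps the shorter exon 2 and ends at 7360461 and Mmp12-203 ends at 7358464. The tables give shares of whole transcripts, so they do not show whether reads fell on the 58 bases or on the end of the last exon.

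Mmp12-202 ends far from the others. Its last exon, 335 bases at 7369165 to 7369499, begins 10701 bases past the end of Mmp12-203. It lies inside the span of Mmp1b, which is on the opposite strand, and overlaps 1 Mmp1b exon. This form has 6 exons and 1017 coding bases, against 10 exons and 1419 coding bases in Mmp12-201, which held 0.780% ± 0.437 of the gene's TPM. Whether counting used strand is not stated, so reads in the overlap could belong to either gene, and Mmp1b had 0 counts in all 3 libraries.

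**Figure D4:**
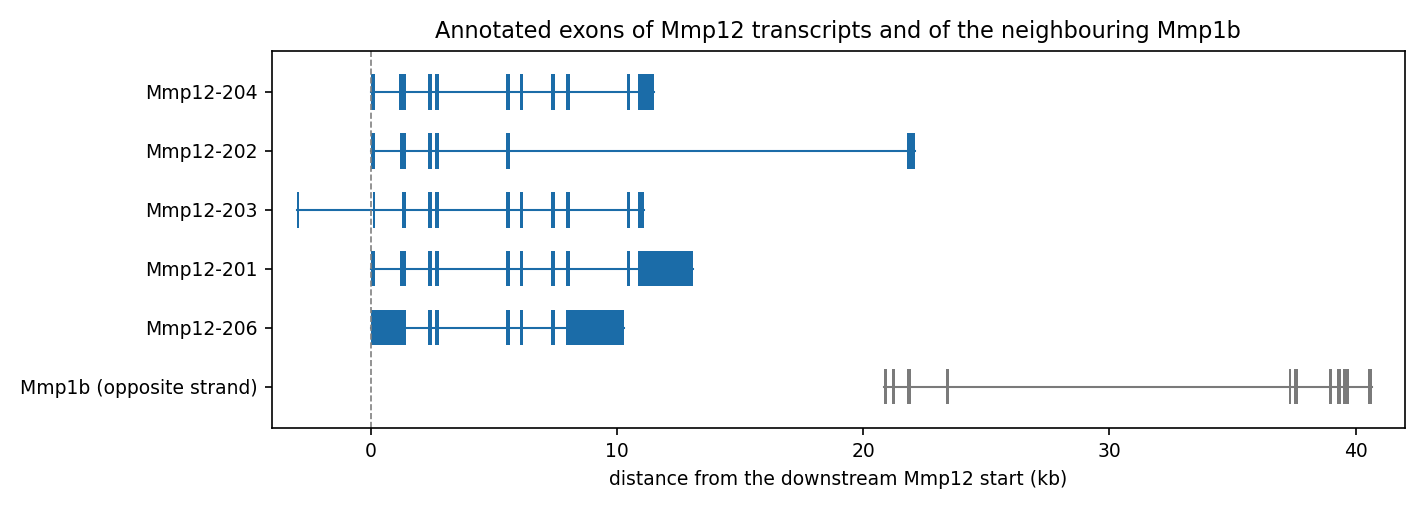
Annotated exons (boxes) of 5 Mmp12 transcripts and of Mmp1b, drawn to scale against the distance in kb from the RefSeq downstream start of Mmp12 (dashed line). The last exon of Mmp12-202 lies within Mmp1b, and Mmp12-203 begins 2977 bases to the left of the dashed line.

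Plaur RNA came mostly from the coding Plaur-201, which held 90.0%, 91.2% and 82.8% of its TPM. Retained-intron transcripts held 10.1%, 7.39% and 16.6%, a mean of 11.3% ± 4.72, which exceeded that of 84.2% of 5646 detected genes with such transcripts; the median gene held 1.99%. The high library, replicate 3, was also the one with the most Malat1, a nuclear RNA, at 359, 248 and 763 TPM in replicates 1, 2 and 3, and its part in the share was not tested. The order replicate 3, 1, 2 of the Plaur share was held by 32.9% of those genes. In the second table the share was 16.4%, 19.8% and 29.3%, again highest in replicate 3.

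Timp2 and Mmp19 each had a pair of coding transcripts, and the tables disagreed on Timp2. In the first table Timp2-201 held 99.7%, 100.0% and 100.0% of the gene, whereas in the second Timp2-202 held 24.2%, 32.0% and 20.0%. Timp2-202 has 430 coding bases against 660 in Timp2-201, with 187 bases that Timp2-201 lacks, while Timp2-201 has 3178 bases that Timp2-202 lacks. For Mmp19 both tables gave the same order, with Mmp19-201 at 74.1%, 77.1% and 88.7% and the remainder in Mmp19-203, which has 1365 coding bases against 1581. Mmp8 and Mmp13 have 1 annotated transcript each, Plau-201 held 99.9% ± 0.179 of Plau, and Mmp14-201 held 93.2% ± 2.40 of Mmp14.

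**Figure D5:**
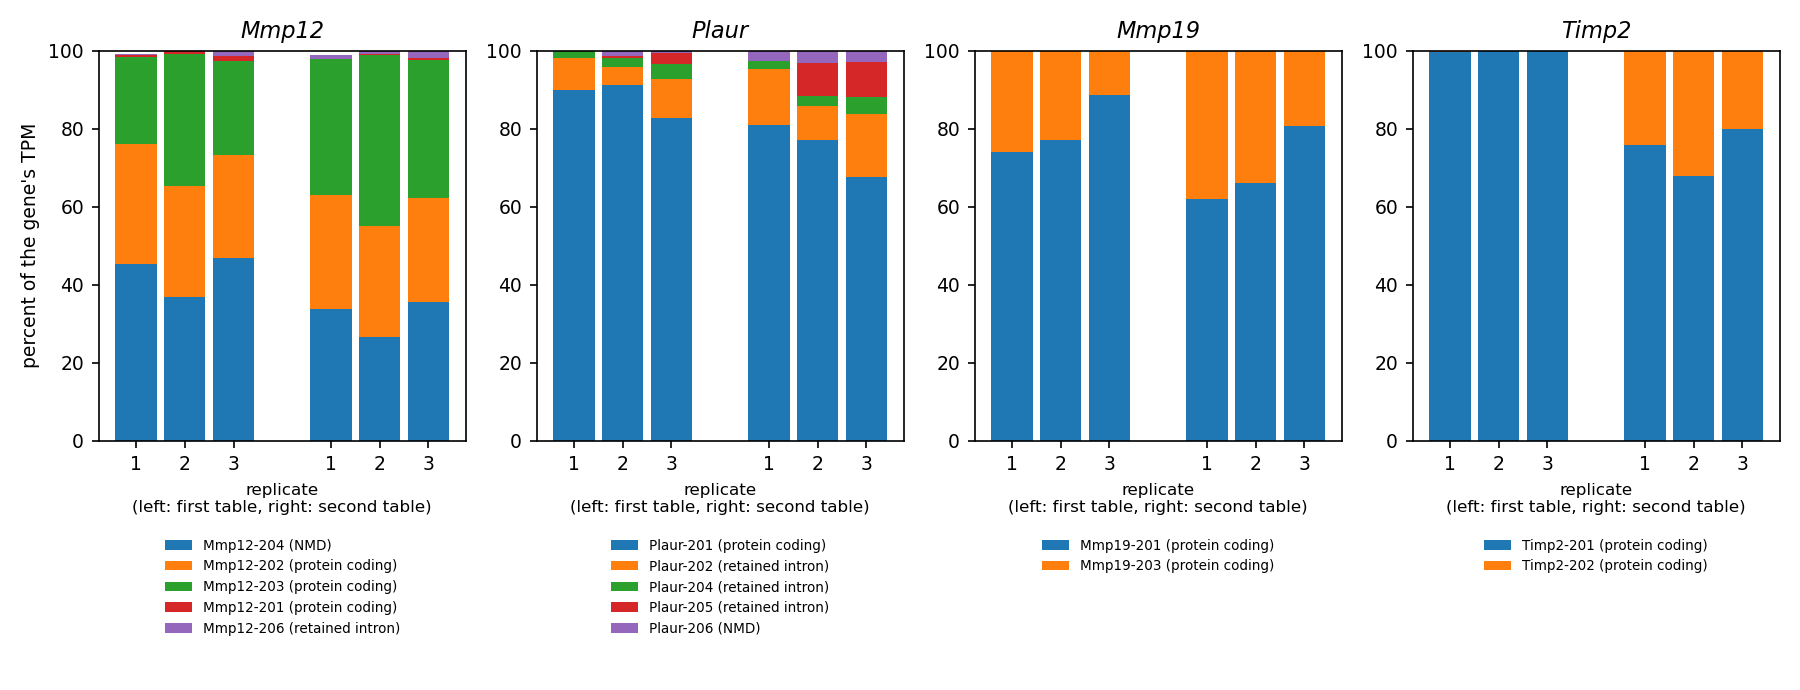
Percent of each gene's TPM in its annotated transcripts, for Mmp12, Plaur, Mmp19 and Timp2. Each bar is 1 library, with the first transcript table on the left of a panel and the second on the right. Timp2-202 holds at most 0.29% in the first table and 20.0% to 32.0% in the second.

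The untranslated 3′ ends differed in their AU-rich pentamers, ATTTA, which some factors bind to speed mRNA decay. Counted with overlaps in the coding transcript that led the first table on average, Mmp13 had 6 and Mmp9 had 5, Plau and Plaur had 2 each, Mmp19 had 1, and Mmp8, Mmp14, Timp2 and the 114 bases of Mmp12-202 had 0, against a median of 1 over 8792 detected genes. Other Mmp12 transcripts were not counted, and Mmp12-203 led its coding forms in the second table. Per kb of 3′ end, Mmp9 had 5.30, Mmp13 4.95, Plaur 4.03, Plau 2.14 and Mmp19 0.580, against a median of 1.27. Mmp9 was the 1 member of 9 with the nonamer TTATTTATT, which 6.85% of those genes hold. The site is shown with its nonamer in capitals, from the M21 transcript on the plus strand of chromosome 2.
Mmp9 site: ccagcccttTTATTTATTatgtatgag
The 2 members with the most pentamers, Mmp13 and Mmp9, were the 2 of lowest mean TPM, but Mmp14 and Mmp8, next above them, had 0. Plaur and Plau, ranked 4 and 3 by mean TPM, lay above the median per kb. A link between pentamers and level was not tested. No decay was measured.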

How the data were processed

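Each library came with a gene table and 2 transcript tables on mm10 and GENCODE M21. Per the submitters' deposited notes, transcriptome alignments gave the first 2 of these tables, whereas the last was made from reads alone. Which software made them is not given in these labels or headers. Expected counts, as deposited, are estimates and can be fractional. The deposited TPM and FPKM values are per length, and the deposited percent values give each transcript's share of its gene. The estimate divides reads that near-identical genes share. The depths per library are given in the text above; exact Poisson intervals (95%) of rounded counts and the limit of 3 counts cover counting error only.

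Members and lists were chosen with earlier results of these data known. All members are named, and from each of 4 lists the 3 highest by mean TPM and any reaching 1 TPM in all libraries. No test was run, since 1 condition gives no comparison. Spread was the SD of log2(TPM + 1) over 3 libraries; its calculation was checked on simulated counts. Alternatives were detection limits of 0.5 and 2 TPM, a pseudocount of 0.1, FPKM, posterior mean TPM, rescaled TPM, TMM log2 CPM of rounded counts (edgeR 4.0.16, prior count 2), DESeq2 1.42.0 size factors, the second table and leaving out each library. Other steps used Python 3.11.15 and pandas 2.3.3. Rows that name no gene held 0.402%, 0.108% and 0.122% of counts and were left out. RefSeq start regions on GRCm38.p6 share the coordinates of mm10.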

Additional observations from a re-analysis of the deposited data

How the results depend on the processing

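Detected members numbered 8 in the main count and 6 to 8 under the other limits, FPKM, the rescaled values and the second table; other system genes numbered 15, with 14 to 17 under those settings. The second table, rescaled, was added after seeing the data and gave 8 and 17. The median SD over detected members ranged from 0.0463 to 0.17 when each library was left out, and it was 0.0463 without replicate 1. The log2 ratio of Plaur to Plau was -1.41 on expected counts, which are not per length. The log2 ratio of the summed metalloproteinases to Timp2 was -1.93 on expected counts and -1.24 in the second table. Leaving out a library gave -0.70 to -0.52 for Plaur to Plau, -5.15 to -4.49 for Mmp14 to Timp2 and -0.98 to -0.95 for the summed ratio. All ratios kept their sign under these settings. For levels and transcript shares, 21 of 25 values moved by more than 1 SD in the second table. Nuclear-encoded protein-coding genes held only 10.5%, 8.92% and 6.71% of TPM there, so its TPM levels before rescaling are on another scale. Rescaled means in the second table and the gene table were 153 and 150 for Mmp12, and 80.8 and 82.3 for Plau. For Timp2 they lay further apart, at 527 and 424. No paired analysis was possible because there is 1 group. Levels near 0 are limited by depth.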
